A study of Mus musculus with 27 samples.

Results

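The genes described here carry the names of the protein components of the cytosolic ribosome and were measured in developing and adult mouse retina. They were taken by symbol, as entries with a Gene ID whose symbol is Rpl or Rps followed by a number and at most 1 letter, together with Rplp0, Rplp1, Rplp2 and Rpsa. The rule found 80 genes, 48 named for the large subunit and 32 for the small subunit, among 22219 symbols with a Gene ID in a table of 38168 entries. GENCODE M21 lists 78 of the 80 genes as protein coding and the other two, Rpl32l and Rps4l, as processed pseudogenes. These genes hold 119 entries in the table, and for the 33 genes with several entries the one with the highest mean was used.

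RNA was measured in whole retinas of wild type C57BL/6J mice, for a study of thyroid hormone receptor isoforms in retinal development. There were 3 libraries of embryonic day 14 (E14), 3 of E17, 4 of postnatal day 1 (P1), 3 of P6, 4 of P15, 4 of P28 and 6 of P60, 27 in all at 7 ages. All mice were untreated, lived in a cycle of 12 h light and 12 h dark, and gave tissue in the light phase. Retinas of 4 to 6 embryos, or of 3 or more mice after birth, were pooled for each library, but at P60 only 2 libraries were pools and 4 were single mice, with no statement of which. Embryos and P1 mice were of mixed sexes and later mice were males, so that sex and age cannot be told apart across that step. The labels give 3 mice to every library. They do not say that the libraries of an age came from separate litters, so that p-values measure the spread between these libraries only.

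A ribosome is built from ribosomal RNA and a nearly fixed set of proteins, each needed once per particle apart from those of the stalk, and cells therefore need these proteins in matched amounts. Growing and dividing cells spend a large part of their transcription and translation on ribosomes. The messages of these proteins are known for a start of pyrimidine bases (the TOP tract), through which the mTOR pathway sets their translation, while Myc proteins favor their transcription. In the retina, progenitor cells divide before birth and in the first postnatal days, and rods, which make up most cells of the mature mouse retina, differentiate after birth.

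The first bases of several of these messages are shown because the TOP tract is the sequence mark of the group. The windows are 30 bases long, 10 before and 20 from the start site of the RefSeq annotation (GRCm38.p6), printed 5′ to 3′ on the coding strand, with runs of 8 or more C or T in capitals.
Rps26 (chr10:128626487-128626516, minus strand): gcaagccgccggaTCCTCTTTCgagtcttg
Rplp2 (chr7:141447641-141447670, plus strand): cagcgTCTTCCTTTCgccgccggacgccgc
Rps6 (chr4:86857348-86857377, minus strand): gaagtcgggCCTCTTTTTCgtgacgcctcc
Rps24 (chr14:24490668-24490697, plus strand): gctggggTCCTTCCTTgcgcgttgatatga
Rps15a (chr7:118116128-118116157, minus strand): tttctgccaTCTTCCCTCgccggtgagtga
Rplp0 (chr5:115559457-115559486, plus strand): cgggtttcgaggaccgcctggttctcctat
Rpl4 (chr9:64173377-64173406, plus strand): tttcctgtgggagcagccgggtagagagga
A RefSeq start was at hand for 59 of the 80 genes. A run of at least 8 C or T lay on the coding strand of this window in 21 of them (35.6%), beside 11.2% of 27025 genes, and on the opposite strand in 3.39%, beside 13.1%. In Rplp0 and Rpl4 the longest run of the window was 7 and 6 bases, and their annotated starts are not measured in these data. Over the 300 bases around the start, searched on both strands, the ETS motif CCGGAAG was found in 39.0% of the 59 genes and 9.12% of all genes, the YY1 motif AAGATGG in 13.6% and 6.48%, the GC box GGGCGG in 57.6% and 35.9%, and TATAAA in 10.2% and 14.2%. Matches of different motifs may overlap, and a match of letters does not show binding.

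The values are CPM, the reads of an entry scaled to the reads counted in its library. The libraries held 7076646 to 11330762 reads, of which the 80 genes together took 0.119% to 0.486%, or 8858 to 47038 reads. Summed over the 80 genes, the 3 libraries of E14 held 4695, 4652 and 4858 CPM, those of E17 3984, 4151 and 4222, and those of P1 3332, 3223, 3154 and 2765. At P6 the sums were 2007, 2034 and 2055 CPM, at P15 1193, 1245, 1261 and 1439, at P28 1386, 1301, 1286 and 1554, and at P60 1247 to 1771 with a median of 1521. The ranges of neighbouring ages did not overlap from E14 to P15, and those of P15, P28 and P60 overlapped.

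**Figure D1:**
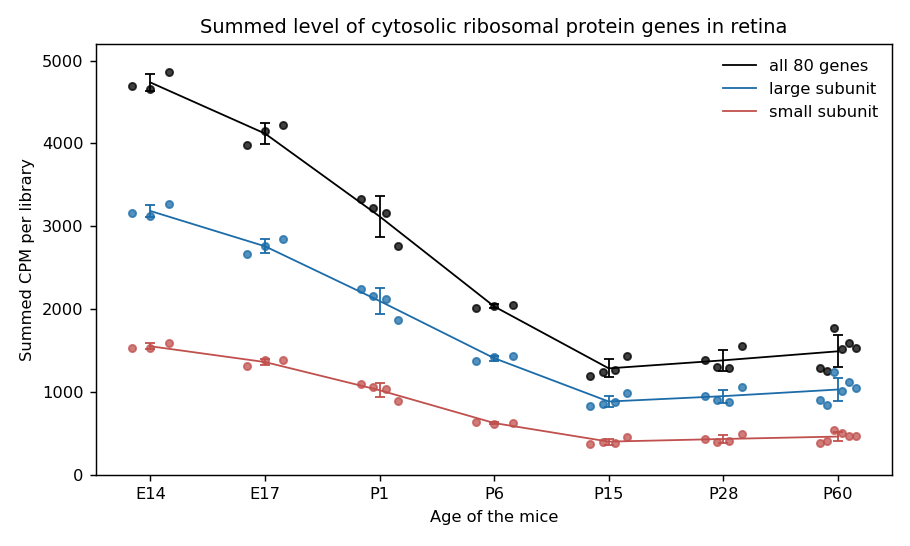
Summed CPM of the ribosomal protein genes (vertical axis) in each of the 27 libraries by age (horizontal axis), for all 80 genes and for each subunit, with points for libraries, lines through the means and bars for the SD. The total falls from a mean of 4735 at E14 to 1285 at P15 and lies at 1491 at P60.

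The mean sum was 4735 ± 108 CPM (SD, n = 3) at E14 and 1285 ± 107 (SD, n = 4) at P15, a ratio of 0.271. Of the fall between these ages, 17.9% lay between E14 and E17, 29.0% between E17 and P1, 31.5% between P1 and P6 and 21.7% between P6 and P15. In bulk tissue, fewer cells with high levels and less of these messages per cell cannot be told apart, and a CPM value is a share of all counted RNA. The summed level of 12 markers of dividing progenitors moved with the sum of the ribosomal protein genes, from 6127 to 6369 CPM at E14 to 34 to 37.4 at P15, and that of 12 rod markers moved against it, from 30.91 to 41.41 CPM at E14 to 20800.0 to 22200.0 at P15. Progenitor markers stood at 167 to 223.6 CPM at P6, while the ribosomal protein genes still held 2007 to 2055. The part of the change in cell makeup in the results was not tested.

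The summed level of the small subunit genes was 0.487 ± 0.0020 (SD, n = 3) of that of the large subunit genes at E14, 0.493 ± 0.0081 (SD, n = 3) at E17 and 0.486 ± 0.0056 (SD, n = 4) at P1. It was 0.444 ± 0.014 (SD, n = 3) at P6, 0.453 ± 0.0091 (SD, n = 4) at P15, 0.455 ± 0.011 (SD, n = 4) at P28 and 0.450 ± 0.034 (SD, n = 6) at P60. The libraries of E14 to P1 (0.480 to 0.502) lay above those of P6, P15 and P28 (0.433 to 0.465), and those of P60 spread from 0.412 to 0.497. No test was made of this ratio.

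To compare retina after eye opening with retina before birth, the mean of P15, P28 and P60 was set against the mean of E14 and E17, in a limma fit of log2(CPM + 1) over all 27 libraries. Of the 80 genes, 79 passed the filter of at least 1 CPM in at least 3 libraries. All 79 were lower in mature retina (adjusted p under 0.05), beside 40.4% of 31760 features called lower, and 0 were higher, beside 35.0%. The decline was of at least 1 on the log2 scale in 65 of the 79 genes, beside 16.1% of all features. In 68 genes every mature library lay below every embryonic library, beside 23.0% of all features. The median log2 fold change of the 79 genes was -1.48, with quartiles of -1.81 and -1.16 and a range from -2.80 to -0.27, whereas the median of all features was -0.06. Fold changes are on the log2(CPM + 1) scale and understate the change of low genes. At an unadjusted p under 0.05 the counts were also 79 and 0. With edgeR on reads recovered from the CPM values, 77 of the 79 were lower and 0 higher. For counts at an unadjusted p, with edgeR or under other settings, here and below, shares over all features are not given. Such counts can therefore not be read as particular to these genes.

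**Figure D2:**
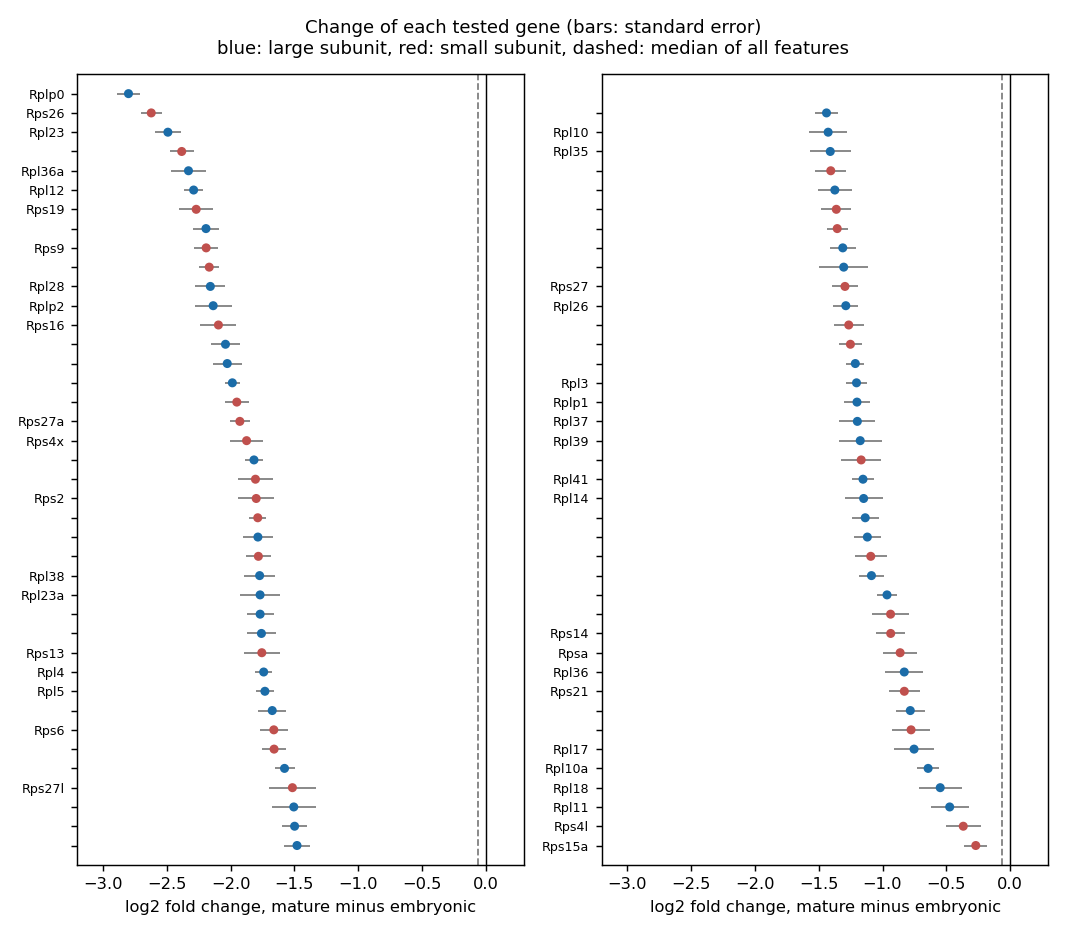
Change of each of the 79 tested genes between embryonic and mature retina (horizontal axis, log2 fold change; points are estimates and bars the SE), ranked from the largest fall (Rplp0, -2.80) to the smallest (Rps15a, -0.27), with the symbols of some of the genes beside the axis. All points lie left of 0 and of the dashed line, the median of all features (-0.06).

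The largest fall was that of Rplp0, the protein at the base of the stalk through which the ribosome recruits translation factors, and a gene often used to normalize PCR measurements. Rplp0 measured 119, 118 and 143 CPM at E14, 107, 110.3 and 125 at E17, 102, 103, 87.2 and 82.2 at P1, 38.4, 47.2 and 45.1 at P6, 16.3, 18.4, 22.6 and 17.9 at P15, 12.7, 12.9, 14.9 and 17.7 at P28, and 13.2 to 21.5 with a median of 15.5 over the 6 libraries of P60. Every library from P15 on lay below the 3 libraries of P6, which in turn lay below all earlier ones. The mean went from 120.4 to 16.6 CPM, 7.27 times lower, with a log2 fold change of -2.80 ± 0.09 (SE; adjusted p = 3.30e-23). The other stalk genes were also lower, and as a list the 4 genes had a median log2 fold change of -2.21. Rpl12 measured 171, 182 and 197 CPM at E14, 143, 160.2 and 177 at E17, 124, 109, 111 and 91.8 at P1, 59.1, 55.8 and 58.3 at P6, 28.8, 34.8, 32 and 36.6 at P15, 37.8, 30.8, 33 and 46.8 at P28, and 31.7 to 34 with a median of 32.9 over the 6 libraries of P60. Rpl12, which binds next to the stalk base, fell by 2.29 ± 0.07 on the log2 scale (SE; adjusted p = 1.87e-23), and its libraries from P15 on lay below all earlier ones. Rplp2 measured 133, 142 and 108 CPM at E14, 94, 87.6 and 81.6 at E17, 67.6, 56.6, 66.6 and 68.3 at P1, 26.3, 29.7 and 27.9 at P6, 15, 20.9, 18 and 21 at P15, 20.3, 22, 26.4 and 24.9 at P28, and 15.3 to 45.3 with a median of 35 over the 6 libraries of P60. Rplp2, an acidic stalk protein that pairs with Rplp1, fell by 2.14 ± 0.14 on the log2 scale (SE; adjusted p = 1.15e-14), and its libraries of P60 were spread more widely than those of any earlier postnatal age. At P60 it held 15.3 and 17.2 CPM in replicates 1 and 2 and 33.8 to 45.3 in replicates 3 to 6. Rplp1 measured 30.8, 27.7 and 26.1 CPM at E14, 26.9, 27.5 and 29 at E17, 19.1, 16.1, 21.6 and 18.1 at P1, 15.5, 11.7 and 14.1 at P6, 5.62, 9.09, 7.91 and 11 at P15, 12.3, 13.6, 17.9 and 14.2 at P28, and 10.8 to 15.3 with a median of 13.4 over the 6 libraries of P60. Rplp1 fell less, by 1.20 ± 0.10 on the log2 scale (SE; adjusted p = 3.37e-12), with its 3 lowest libraries at P15.

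Rps26 had the next largest fall. It sits where the message leaves the small subunit and is 1 of 10 genes in the list of those mutated in Diamond-Blackfan anemia, an inherited failure of red cell production. Rps26 measured 51.5, 53 and 52.4 CPM at E14, 48.2, 55.5 and 49.8 at E17, 38.6, 38.3, 34.6 and 33.2 at P1, 19.9, 18 and 15.9 at P6, 9.1, 8.69, 10.2 and 7.83 at P15, 8.79, 7.02, 8.39 and 9.68 at P28, and 4.72 to 6.9 with a median of 5.94 over the 6 libraries of P60. The libraries fell into separate ranges at E14 and E17, at P1, at P6, and from P15 on, with P60 entirely below P28. The mean of mature retina was 6.95 times lower than that of embryonic retina, a log2 fold change of -2.62 ± 0.08 (SE; adjusted p = 2.82e-23). Rps19, another gene of that list and needed for maturation of the small subunit, went from 27.5 to 4.98 CPM, a log2 fold change of -2.27 ± 0.13 (SE; adjusted p = 3.72e-16). All 10 genes of the list were lower, with a median of -1.51, and Rpl11 changed least.

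Rpl23 measured 71.9, 71.7 and 58.3 CPM at E14, 69, 76.4 and 79.8 at E17, 44.3, 39.8, 43.3 and 31.7 at P1, 22.9, 19.9 and 23.3 at P6, 12.8, 12.1, 12.7 and 11.1 at P15, 12.4, 8.85, 13.9 and 17.5 at P28, and 7.97 to 14.4 with a median of 10.2 over the 6 libraries of P60. Rpl23, a large subunit protein at the interface with the small subunit, fell by 2.49 ± 0.10 on the log2 scale (SE; adjusted p = 4.89e-20), with the E17 libraries reaching above those of E14. Rpl36a went from 15.2 to 2.24 CPM and fell by 2.33 ± 0.14 on the log2 scale (SE; adjusted p = 3.63e-16).

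**Figure D3:**
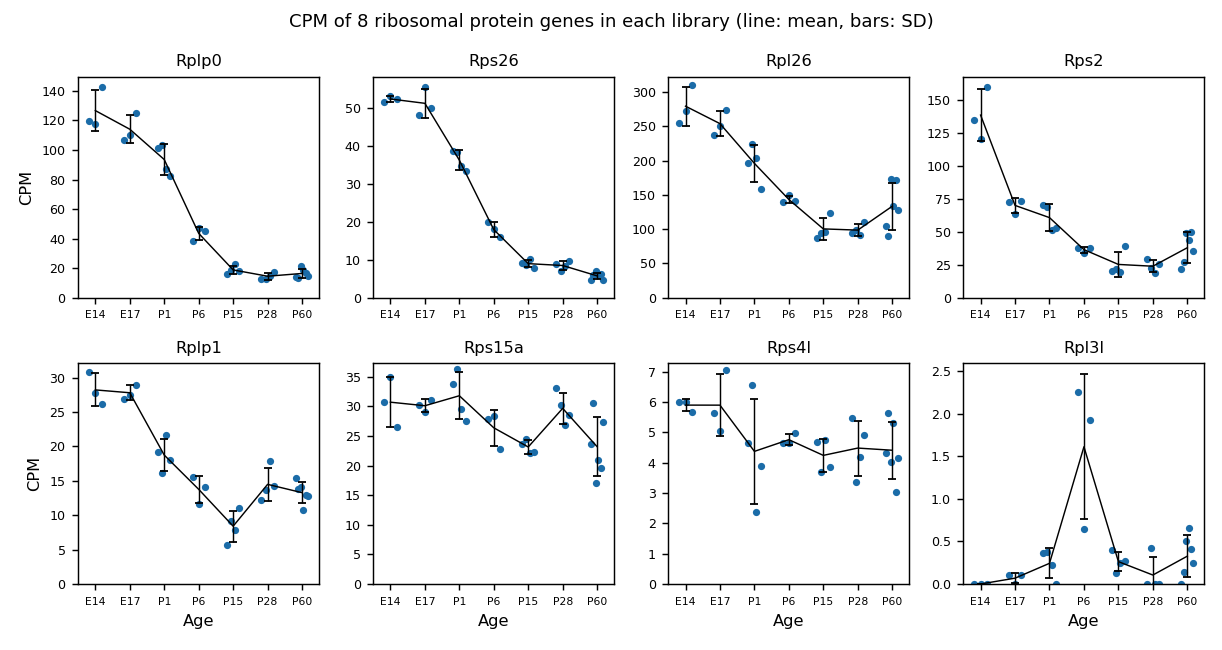
CPM (vertical axes) of 8 ribosomal protein genes in each library by age (horizontal axes), with lines through the means and bars for the SD. Rplp0 and Rps26 fall to P15, Rps2 is higher at E14 than at any later age, Rps15a and Rps4l change little, and Rpl3l lies below 1 CPM outside P6.

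To set genes beside each other, levels were expressed per kilobase of merged exons. These join the exons of all transcripts used for a gene, and their length had a median of 969 bases over the 80 genes. It was 3413 bases in Rpl18 and 2551 in Rpsa. Where merged exons are longer than the message, this scale gives too low a level, so that ranks between genes are approximate. On that scale the highest means over all libraries were those of Rpl26 (229 CPM per kb), Rpl4 (109), Rps6 (101) and Rpl3 (82.5). The median of the 80 genes was 20.6 CPM per kb, beside 5.37 for 15946 other coding genes. The lowest were Rpl3l (0.219 CPM per kb), Rpl18 (0.471), Rpsa (0.75) and Rpl17 (1.22). The levels of the 79 genes other than Rpl3l spanned from 0.471 to 229 CPM per kb.

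Rpl4 measured 371, 351 and 349 CPM at E14, 279, 294 and 288 at E17, 227, 219, 220.0 and 202 at P1, 127, 129.9 and 134 at P6, 69.5, 83.4, 83.4 and 103 at P15, 104, 91.8, 90.4 and 128 at P28, and 86.5 to 108 with a median of 103 over the 6 libraries of P60. Rpl4, whose long loop lines the exit tunnel of the nascent chain, fell by 1.74 ± 0.07 on the log2 scale (SE; adjusted p = 5.31e-21), with no overlap between embryonic and mature libraries. Rpl26 measured 255, 272 and 310.3 CPM at E14, 238, 250.3 and 273 at E17, 197, 224, 204 and 159 at P1, 139.9, 149 and 141 at P6, 86.3, 94.9, 95.9 and 124 at P15, 94.1, 98.3, 91.2 and 111 at P28, and 89.3 to 173 with a median of 131 over the 6 libraries of P60. Rpl26, at the mouth of the tunnel, fell by 1.29 ± 0.10 on the log2 scale (SE; adjusted p = 3.18e-13), and its P60 libraries were spread from the level of P28 to that of P6 and above. Rps6 measured 179, 169 and 201 CPM at E14, 144, 157 and 162 at E17, 114, 107, 109 and 82.6 at P1, 56.9, 62.5 and 64.5 at P6, 32.8, 46.4, 44.4 and 62.5 at P15, 44.8, 44.5, 46.9 and 50.9 at P28, and 48.8 to 86.4 with a median of 72.2 over the 6 libraries of P60. Rps6, the small subunit protein phosphorylated by S6 kinases under mTOR, fell by 1.66 ± 0.11 on the log2 scale (SE; adjusted p = 4.07e-15), and its libraries at P60 reached above those of P28. Rpl3, near the catalytic center, went from 182 to 79.6 CPM and fell by 1.20 ± 0.08 on the log2 scale (SE; adjusted p = 1.36e-14). Rps27a, made as a fusion with ubiquitin, went from 122 to 31.4 CPM, a log2 fold change of -1.93 ± 0.08 (SE; adjusted p = 1.34e-20). Rpl41, which encodes the smallest protein of the ribosome, went from 64.2 to 29 CPM, a log2 fold change of -1.15 ± 0.08 (SE; adjusted p = 9.47e-14). For Rpl38, known for the skeletal defects of its mouse mutant, the mean went from 12.7 to 3.01 CPM, a log2 fold change of -1.77 ± 0.12 (SE; adjusted p = 1.25e-14).

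Other genes changed far less. The smallest fall was that of Rps15a, a small subunit protein. Rps15a measured 30.7, 34.9 and 26.5 CPM at E14, 30.2, 29 and 31.2 at E17, 33.7, 36.3, 29.6 and 27.6 at P1, 27.8, 28.4 and 22.9 at P6, 23.7, 24.5, 22.1 and 22.3 at P15, 33, 30.2, 26.9 and 28.5 at P28, and 17.1 to 30.6 with a median of 22.3 over the 6 libraries of P60. Embryonic and mature libraries overlapped, with all 4 of P15 below those of E14 and E17, and the highest mean was at P1. From embryonic to mature retina its log2 fold change was -0.27 ± 0.09 (SE; adjusted p = 0.00908), and with edgeR the adjusted p was 0.072. Rps4l measured 6, 6.01 and 5.68 CPM at E14, 5.62, 5.03 and 7.04 at E17, 4.66, 6.55, 2.37 and 3.9 at P1, 4.66, 4.65 and 4.96 at P6, 4.68, 3.69, 4.75 and 3.85 at P15, 5.46, 3.37, 4.19 and 4.9 at P28, and 3.02 to 5.63 with a median of 4.25 over the 6 libraries of P60. Rps4l, a retained copy of the small subunit gene Rps4x that GENCODE lists as a transcribed processed pseudogene, had a log2 fold change of -0.37 ± 0.14 (SE; adjusted p = 0.0156). Its adjusted p was 0.056 with edgeR and 0.060 without E17 replicate 3, and it was the only tested member that did not pass the F test over the 7 ages (adjusted p = 0.253). Rps4x measured 21.9, 18.1 and 24.3 CPM at E14, 16.8, 14.6 and 18.2 at E17, 13.9, 12.1, 12 and 15.1 at P1, 7.21, 9.84 and 10.9 at P6, 5.76, 4.61, 4.38 and 4.4 at P15, 5.06, 2.11, 4.6 and 4.27 at P28, and 3.24 to 6 with a median of 4.5 over the 6 libraries of P60. The X-linked Rps4x itself fell by 1.88 ± 0.13 on the log2 scale (SE; adjusted p = 1.87e-14), with embryonic libraries above all mature ones. Per kilobase of exons (975 bases in Rps4x and 943 in Rps4l), the means of the 2 genes were 22 and 6.26 CPM at E14 and 4.76 and 4.68 at P60. Of the 50-base stretches of their transcripts, 27.8% in Rps4x and 85.1% in Rps4l occurred in no transcript of another gene. Reads of the 2 genes may therefore not have been counted alike, and their levels cannot be set equal.

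The remaining small falls on the log2(CPM + 1) scale were those of Rpl11, Rpl18, Rpl10a and Rpl17. Rpl11 measured 6.4, 6.12 and 9.05 CPM at E14, 6.95, 4.5 and 4.97 at E17, 5.52, 7.06, 5.31 and 3.55 at P1, 3.39, 6.27 and 4.55 at P6, 4.55, 2.63, 4.14 and 3.85 at P15, 3.86, 3.79, 2.98 and 5.03 at P28, and 3.66 to 7.51 with a median of 4.58 over the 6 libraries of P60. Rpl11, which with Rpl5 joins a small ribosomal RNA and binds Mdm2 when assembly fails, had a log2 fold change of -0.47 ± 0.15 (SE; adjusted p = 0.00486) and overlapping libraries. Rpl5 measured 156, 154 and 122 CPM at E14, 131, 136 and 122 at E17, 89.3, 79.4, 88.4 and 86.9 at P1, 54.7, 55.9 and 61.1 at P6, 40.6, 38.2, 41.4 and 41.8 at P15, 43.6, 39.2, 38.7 and 53.7 at P28, and 32.9 to 44.5 with a median of 36.9 over the 6 libraries of P60. Its partner Rpl5 fell by 1.73 ± 0.07 on the log2 scale (SE; adjusted p = 9.83e-21) with no overlap. Rpl18 went from 2.16 to 1.18 CPM (log2 fold change -0.55 with an SE of 0.17, adjusted p = 0.00423) and Rpl17 from 2.55 to 1.1 CPM (log2 fold change -0.75 with an SE of 0.15, adjusted p = 5.92e-05), which are low levels for the group. At such levels this scale understates the change, and the falls of Rpl17 and Rpl18 in CPM were larger than it shows. Rpl10a measured 43.6, 47.9 and 46.2 CPM at E14, 31.3, 34.7 and 33 at E17, 30.4, 33, 30.8 and 29.6 at P1, 36.5, 42.5 and 36.3 at P6, 20.5, 23.2, 19.7 and 24.7 at P15, 22.4, 20.6, 20.4 and 24 at P28, and 22.7 to 39.9 with a median of 33.2 over the 6 libraries of P60. Rpl10a, a large subunit protein of the flexible stalk that faces the exit site, had a log2 fold change of -0.64 ± 0.09 (SE; adjusted p = 5.04e-08), and its libraries at P6 lay above those of P1. Besides these 6 genes, Rpl36, Rps10, Rps14 and Rps21 also had overlapping embryonic and mature libraries. The 37 genes outside the rule for named genes were all lower, with log2 fold changes from -2.19 to -0.78.

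The highest mean was at E14 in 58 of the 79 genes, at E17 in 20 and at P1 in 1 (Rps15a), and the lowest was at P15 in 41, at P28 in 13, at P60 in 24 and at P6 in 1 (Rpl36). Over the 7 age means, the Pearson correlation of a gene with the median profile of the group had a median of 0.977 and was over 0.9 in 72 genes. This is a description, since the ages and libraries are shared by all genes. The 7 genes under 0.9 were Rpl10a (0.743), Rps15a (0.747), Rps4l (0.794), Rps10 (0.828), Rps21 (0.830), Rpl11 (0.852) and Rps14 (0.886).

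Taking the ages in turn, the F test over the 7 ages passed in 78 of the 79 genes, beside 83.0% of all features. From E14 to E17, 3 genes were lower (3.8%, beside 3.02% of all features) and 0 higher (beside 7.56%), with a median log2 fold change of -0.14. The share called lower was close to that of all features. Rps2 measured 135, 120.4 and 159.8 CPM at E14, 72.8, 63.3 and 73.5 at E17, 70, 68.8, 51 and 52.6 at P1, 37.6, 33.9 and 37.8 at P6, 20.5, 21.6, 19.2 and 39.4 at P15, 29.3, 22.2, 18.5 and 25.3 at P28, and 22 to 49.6 with a median of 39.5 over the 6 libraries of P60. All E14 libraries of Rps2, a small subunit protein of the message entry channel, lay above all E17 libraries, and the mean went from 138 to 69.9 CPM, a log2 fold change of -0.97 ± 0.23 (SE; adjusted p = 0.00451). Rpl32 fell by 0.38 ± 0.10 on the log2 scale (SE; adjusted p = 0.0092) and Rpl10a by 0.46 ± 0.14 on the log2 scale (SE; adjusted p = 0.0283). Rpl32 did not pass without E14 replicate 3 (adjusted p = 0.0695), and Rpl10a did not without E14 replicate 2 or 3 or any E17 replicate (0.0513 to 0.113). Rpl14 and Rpl10, with the next largest estimates, did not pass, at -0.67 ± 0.25 (SE; adjusted p = 0.0873) and -0.60 ± 0.24 (SE; adjusted p = 0.129). With only the libraries of E14 and E17 in the fit both passed (adjusted p = 0.0185 and 0.0252), and Rpl14 also passed with edgeR (0.0389) and with all entries of a symbol summed (0.0286). On the other side stood Rpl37 (9.07 to 13.4 CPM; log2 fold change 0.54 with an SE of 0.23, adjusted p = 0.16), Rpl23a (log2 fold change 0.40 with an SE of 0.27, adjusted p = 0.46) and Rps21 (log2 fold change 0.34 with an SE of 0.20, adjusted p = 0.367), none of which passed. In 29 genes every E17 library lay below every E14 library, beside 16.2% of all features. The number of genes called lower was 26 with only the libraries of E14 and E17 in the fit and 1 without E14 replicate 3. At an unadjusted p under 0.05, 15 genes were lower and 1 higher with limma, and edgeR called 4 lower and 0 higher.

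Around birth, from E17 to P1, 20 genes were lower (beside 3.43% of all features) and 0 higher (beside 5.77%), with a median of -0.36. Large estimates were those of Rpl23a, a protein at the tunnel exit that binds the signal recognition particle (8.14 to 3.57 CPM, log2 fold change -1.02 with an SE of 0.25, adjusted p = 0.0058), Rpl23 (75.1 to 39.8 CPM, log2 fold change -0.91 with an SE of 0.16, adjusted p = 1.98e-04) and Rpl37 (13.4 to 7.33 CPM, log2 fold change -0.82 with an SE of 0.22, adjusted p = 0.0128). Rpl23a and Rpl37 had their highest means at E17. Rpl37 did not pass without E17 replicate 3 (adjusted p = 0.0798) or P1 replicate 4 (0.0708), and Rpl23a did not with a pseudocount of 0.1 (0.0522). The genes with the highest estimates, Rps15a (log2 fold change 0.07 with an SE of 0.14, adjusted p = 0.873), Rpl10 (log2 fold change 0.04 with an SE of 0.23, adjusted p = 0.968) and Rpsa, which also serves as a laminin receptor (2.91 CPM at both ages), did not pass. The number of genes called was 11 without E17 replicate 3, 12 without E17 replicate 2 and 12 without P1 replicate 4, and 37 with only E17 and P1 in the fit. In 47 genes every P1 library lay below every E17 library, beside 10.8% of all features. At an unadjusted p under 0.05, 42 genes were lower and 0 higher with limma, and edgeR called 24 lower and 0 higher.

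Between P1 and P6, when the summed progenitor markers went from 4718 to 5120 CPM at P1 to 167 to 223.6 at P6, 48 ribosomal protein genes were lower (beside 20.4% of all features) and 0 higher (beside 18.0%), with a median of -0.55. Among the largest falls were those of Rps16 (19.9 to 7.39 CPM, log2 fold change -1.33 with an SE of 0.22, adjusted p = 1.01e-05) and Rplp2 (64.8 to 28 CPM, log2 fold change -1.18 with an SE of 0.22, adjusted p = 6.85e-05). In 52 genes every P6 library lay below every P1 library, beside 25.4% of all features. Rpl10a was the 1 gene with every P6 library above every P1 library, beside 22.5% of all features (30.9 to 38.4 CPM), without passing the test (log2 fold change 0.30 with an SE of 0.13, adjusted p = 0.0735). It passed with only P1 and P6 in the fit (adjusted p = 0.0125) and without P60 replicate 2 (0.037) or 3 (0.0455), which enter the shared spread. Rps4l (log2 fold change 0.16 with an SE of 0.21, adjusted p = 0.601) and Rps14 (log2 fold change 0.09 with an SE of 0.17, adjusted p = 0.748) did not pass either. At an unadjusted p under 0.05, 55 genes were lower and 1 higher with limma, and edgeR called 39 lower and 0 higher.

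From P6 to P15, across eye opening, 54 genes were lower (beside 19.0% of all features) and 0 higher (beside 14.4%), with a median of -0.57. Rplp0 went from 43.6 to 18.8 CPM (log2 fold change -1.17 with an SE of 0.14, adjusted p = 5.76e-08), Rps9 from 50.6 to 22.6 CPM (log2 fold change -1.13 with an SE of 0.15, adjusted p = 3.32e-07) and Rps14 from 23.3 to 10.9 CPM (log2 fold change -1.03 with an SE of 0.17, adjusted p = 2.00e-05). Rps14, a small subunit protein needed for late steps of assembly, had means of 28.7, 23.3, 21.9 and 23.3 CPM from E14 to P6. Rpl36 (log2 fold change 0.14 with an SE of 0.23, adjusted p = 0.685), Rpl17 (log2 fold change 0.07 with an SE of 0.24, adjusted p = 0.853) and Rpl39 (log2 fold change -0.06 with an SE of 0.26, adjusted p = 0.88), all at means of under 3 CPM at these ages, did not pass. In 58 genes every P15 library lay below every P6 library, beside 24.3% of all features. At an unadjusted p under 0.05, 61 genes were lower and 0 higher with limma, and edgeR called 46 lower and 0 higher.

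**Figure D4:**
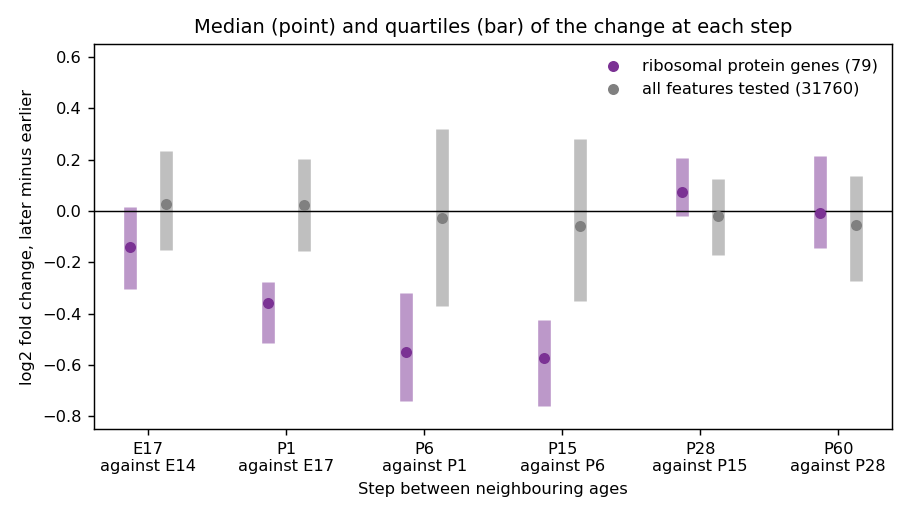
Median (points) and quartiles (bars) of the log2 fold change at each step between neighbouring ages (horizontal axis), for the 79 ribosomal protein genes and for all 31760 features. The medians of the ribosomal protein genes are -0.14, -0.36, -0.55 and -0.57 up to P15 and 0.07 and -0.01 after it.

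After P15 few genes differed between neighbouring ages. From P15 to P28, 1 gene was higher (1.27%, beside 1.14% of all features) and 0 were lower (beside 1.58%), and the median was 0.07. The share called higher was close to that of all features. The gene was Rplp1, at 8.4 to 14.5 CPM, a log2 fold change of 0.74 ± 0.15 (SE; adjusted p = 0.00247), with every P28 library above every P15 library. Rpsa (0.738 to 1.43 CPM, log2 fold change 0.53 with an SE of 0.19, adjusted p = 0.173) and Rpl28 (10.4 to 14.9 CPM, log2 fold change 0.46 with an SE of 0.17, adjusted p = 0.166) had the next highest estimates, and Rpl39 (log2 fold change -0.40 with an SE of 0.24, adjusted p = 0.498), Rplp0 (log2 fold change -0.35 with an SE of 0.13, adjusted p = 0.168) and Rps13 (log2 fold change -0.32 with an SE of 0.20, adjusted p = 0.53) the lowest, and none of these passed. In 5 genes (6.33%) every P28 library lay above every P15 library, beside 4.82% of all features. Limma at an unadjusted p under 0.05 had 9 genes higher and 1 lower, and edgeR called 1 higher and 0 lower. The count of called genes was 4 without P15 replicate 4 and 2 without P28 replicate 3 or P60 replicate 3.

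The libraries of P60 were less alike than those of other ages. Over all features, the chi-square of the reads per degree of freedom was 3.13 between replicates 1 and 2, 4.37 to 8.54 among replicates 3 to 6, and 7.63 to 19.3 between these sets, whereas pairs of other ages gave 1.69 to 7.49. From P28 to P60, 6 genes were lower (7.59%, beside 8.11% of all features) and 4 higher (5.06%, beside 4.80%). Both shares were close to those of all features, so that the counts are not a trait of the group. The lower genes were Rps24 (35.2 to 26.1 CPM, log2 fold change -0.42 with an SE of 0.09, adjusted p = 0.00645), Rps26 (8.47 to 5.74 CPM, log2 fold change -0.49 with an SE of 0.11, adjusted p = 0.00766), Rps15a (log2 fold change -0.36 with an SE of 0.12, adjusted p = 0.0438), Rps21 (log2 fold change -0.47 with an SE of 0.16, adjusted p = 0.0453), Rpl35 and Rpl23a. Of these, Rps24 and Rps26 had every P60 library below every P28 library (2.53% of the 79 genes, beside 2.26% of all features). Both passed whichever of the 27 libraries was left out. The other 4 lay close to the threshold. Rpl35 (log2 fold change -0.63 with an SE of 0.21, adjusted p = 0.0477) no longer passed in 23 of the 27 fits with 1 library left out (adjusted p up to 0.23), Rpl23a (log2 fold change -0.63 with an SE of 0.21, adjusted p = 0.0464) in 17 (up to 0.20), Rps21 in 16 (up to 0.136) and Rps15a in 12 (up to 0.141). With edgeR, the adjusted p was 0.0583 for Rpl23a, 0.083 for Rps21 and 0.0869 for Rps15a. The higher genes were Rpl10a (21.9 to 31.4 CPM, log2 fold change 0.48 with an SE of 0.11, adjusted p = 0.00899), Rps6 (46.8 to 69.2 CPM, log2 fold change 0.52 with an SE of 0.14, adjusted p = 0.0187), Rps2 (23.8 to 37.8 CPM, log2 fold change 0.60 with an SE of 0.19, adjusted p = 0.033) and Rpl26 (98.5 to 133 CPM, log2 fold change 0.40 with an SE of 0.13, adjusted p = 0.0432). Of these, Rpl10a passed whichever library was left out. Rps6 did not pass without P28 replicate 1 or 2 or P60 replicate 5 (adjusted p up to 0.0587), Rps2 without P28 replicate 2, 3 or 4 or P60 replicate 3, 4 or 5 (0.0516 to 0.12), and Rpl26 in 12 of the 27 fits (up to 0.115). In the 4 higher genes P60 replicates 1 and 2 were the lowest of their age, as the libraries of Rps2 show, which held 22 and 27 CPM in replicates 1 and 2 and 49.3, 43.9, 49.6 and 35.2 in replicates 3 to 6. Without replicates 1 and 2, an analysis added after the data were seen, 13 genes were higher and 8 lower. In that fit 27665 of 31760 features passed the F test over the 7 ages, against 26355 in the main fit. The larger count can therefore not be read as particular to the ribosomal protein genes. The count of 10 calls became 0 with only P28 and P60 in the limma fit (5 higher and 7 lower at an unadjusted p under 0.05). It was 7 with edgeR (4 higher and 3 lower) and 7 under median-of-ratios scaling (5 higher and 2 lower). Single libraries moved it from 3 (without P28 replicate 2 or P60 replicate 5) to 19 (without P60 replicate 2), with 5 or 6 without E14 replicate 2, any E17 replicate, P6 replicate 3, P28 replicate 1 or 4 or P60 replicate 3, 4 or 6, and 15 without P60 replicate 1.

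Rpl3l failed the filter on low values. It encodes a relative of Rpl3 known from heart and skeletal muscle. Rpl3l measured 0, 0 and 0 CPM at E14, 0.102, 0 and 0.104 at E17, 0.368, 0.378, 0.226 and 0 at P1, 2.26, 0.649 and 1.93 at P6, 0.402, 0.132, 0.243 and 0.275 at P15, 0, 0.421, 0 and 0 at P28, and 0 to 0.663 with a median of 0.329 over the 6 libraries of P60. At P6 the 3 libraries held 16, 6 and 14 reads, and no library of another age held more than 6. In a fit without the filter, Rpl3l was higher at P6 than at P1 (log2 fold change 1.02, adjusted p = 4.73e-05) and lower at P15 than at P6 (-0.99, adjusted p = 1.03e-04), and it did not pass between embryonic and mature retina (0.24, adjusted p = 0.0826). In another pair of similar genes, Rps27l went from 6.12 to 1.54 CPM (log2 fold change -1.52 with an SE of 0.19, adjusted p = 1.07e-08) and Rps27 from 23.5 to 9.19 CPM (log2 fold change -1.29 with an SE of 0.10, adjusted p = 2.49e-13). Rpl10 and Rpl39 are not partners of each other. Of the 10 genes listed for similar pairs, 8 had an entry with a Gene ID, and no partner of Rpl10 or Rpl39 was among them. Rpl10 went from 10.8 to 3.4 CPM (log2 fold change -1.43 with an SE of 0.15, adjusted p = 2.68e-10) and Rpl39 from 5.22 to 1.83 CPM (log2 fold change -1.17 with an SE of 0.17, adjusted p = 2.00e-07). All 7 tested genes of this list were lower, with a median of -1.29.

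Messages of these genes are short and have many processed copies in the genome, so that a 50-base read often matches several places. Of the 50-base stretches of a transcript, a median of 50.7% over the 80 genes occurred in no transcript of another gene in GENCODE M21 (GRCm38), and 39 genes were under 50% (48.75%), beside 4.73% of other coding genes. The share was 1.35% in Rps27, 6.16% in Rpl5, 11.9% in Rpl10a, 14.4% in Rpl3, 15.4% in Rps6, 28.7% in Rps2 and 39.0% in Rpl26, and it was 83.5% in Rpl4, 61.7% in Rps26, 58.2% in Rplp0 and 93.6% in Rps15a. How reads with several matches were counted is not given in the sources used here, and levels of the former genes are uncertain for that reason. The share of Rps15a is that of a transcript of 5179 bases, beside a median of 882 bases over the 80 genes. As 64 other genes have a stretch in common with it, its high share does not make its level certain. The mean level per kilobase did not follow the unique share (Pearson's r = -0.09 and Spearman's rho = -0.02 across the 80 genes, which share all libraries). Both measures depend on the annotated length, since a long transcript can raise the share and lower the level per kilobase. The correlation therefore cannot show whether reads with several matches were lost, which was not tested. The 39 genes under 50% had a median log2 fold change of -1.43 from embryonic to mature retina and the 40 tested others -1.50. All were lower in both sets.

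Other overlaps bear on single genes. In GENCODE M21, exons of 37 of the 80 genes overlap those of another gene, in 27 on the same strand and in 18 on the opposite strand, and 15 carry a small nucleolar RNA inside an intron. Rps2 (chr17:24718116-24721929) overlaps Snora64 on its own strand and Snhg9 on the other, Rpl12 (chr2:32961559-32965345) overlaps Snora65 and Lrsam1, and Rpl23a overlaps Snord42b and Tlcd1. Rplp0 (chr5:115559467-115563727), Rps26 (chr10:128624534-128626747) and Rps15a (chr7:118104372-118116188) overlap none. Whether counting used the strand is not stated, so reads of overlapping genes cannot be told apart.

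By kind of member, the median log2 fold change from embryonic to mature retina was -1.44 for 47 large subunit genes and -1.59 for 32 small subunit genes. It was -1.41 for 7 genes around the exit of the peptide tunnel, where Rpl31 (log2 fold change -2.19 with an SE of 0.10, adjusted p = 1.52e-18) and Rpl17 were the extremes. Rpl17 lies at a low level, where the log2(CPM + 1) scale understates the change. The 21 genes with a run of at least 8 C or T at their annotated start had a median of -1.41 and the 37 tested genes without one -1.58. The genes with the run include both Rps26 and Rps15a, whose starts are printed above. None of these differences was tested.

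Genes that work with the ribosome are described by lists, for the comparison of mature with embryonic retina. In this comparison 40.4% of all features were lower and 35.0% higher. Genes listed as ribosomal protein genes with other symbols were all lower (6 of 6, median -1.39), among them Rack1 (204.6 CPM at E14 and 52.8 at P60, log2 fold change -1.92 ± 0.08 (SE), adjusted p = 1.01e-20) and Fau (-1.60 ± 0.11 (SE), adjusted p = 2.80e-14), with the smallest fall in the Rpl7-like gene Rpl7l1 (-0.53). Of 9 genes listed with the elongation factors, 7 were lower and 1 higher. Eef1a1, which carries aminoacyl-tRNA to the ribosome, went from a mean of 527 CPM at E14 to 189 at P6 and 82.4 at P60 (-2.48 ± 0.06 (SE), adjusted p = 1.20e-26), while Eef1a2, its counterpart in neurons and muscle, went from 8.91 to 36.2 and 172 (3.62 ± 0.11 (SE), adjusted p = 1.57e-23). The mean of Eef1a1 was above that of Eef1a2 up to P6 and below it from P15. Eef1b2, an exchange factor for both, fell by 2.36. Eef1akmt1, a methyltransferase of Eef1a and not itself an elongation factor, did not pass (-0.05).

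**Figure D5:**
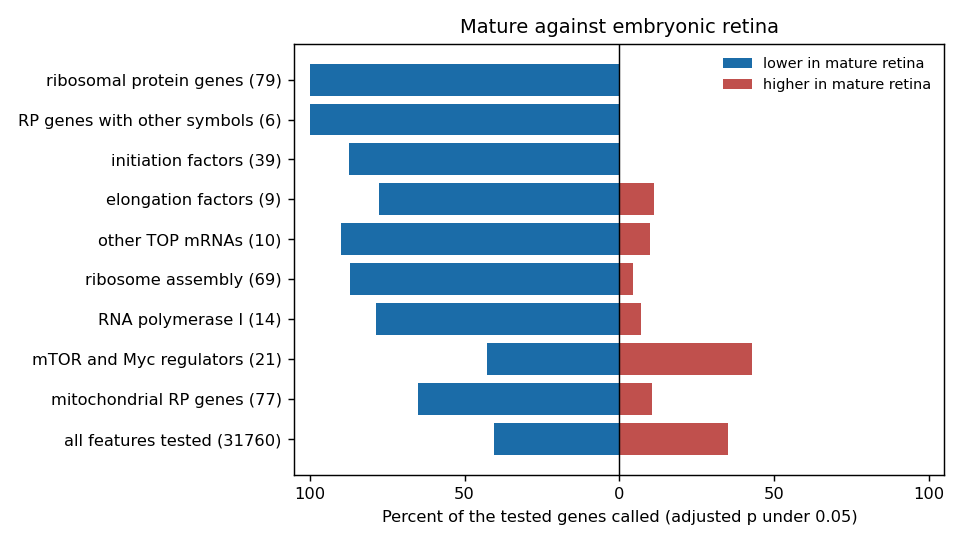
Percent of the tested genes of each list called lower (left, blue) or higher (right, red) in mature than in embryonic retina, with the number tested in brackets. All ribosomal protein genes are lower, initiation factors are lower in 87.2% and mitochondrial ribosomal protein genes in 64.9%, and the mTOR and Myc list holds 42.9% on each side. Of all features tested, 40.4% are lower and 35.0% higher.

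Initiation factor genes were lower in 34 of 39 and higher in 0, with a median of -0.79. Eif3l (-1.88 ± 0.08 (SE)) and the poly(A)-binding protein gene Pabpc1 (-1.73 ± 0.06 (SE)) fell most, and Eif2b3 (0.03) and Eif2b4 (0.01) did not pass. Among 10 other genes known for a TOP tract, 9 were lower and 1 higher, with a median of -1.67. Tpt1 went from 649 CPM at E14 to 96.9 at P60 (-2.69 ± 0.06 (SE), adjusted p = 4.04e-28), Hnrnpa1 fell by 2.36, and Ccng1 was higher (0.74 ± 0.08 (SE)). Eif4b, Gas5, Npm1 and Pabpc1 are in this list and in another.

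Of 69 ribosome assembly factor genes, 60 were lower and 3 higher, with a median of -0.65. Npm1, a nucleolar chaperone, went from 134.9 CPM at E14 to 21.1 at P60 (-2.34 ± 0.06 (SE), adjusted p = 3.25e-26) and Gar1, of the pseudouridine-making particle, fell by 2.15 ± 0.13 (SE). The highest estimates were those of Rrp1b (1.60 ± 0.07 (SE), adjusted p = 5.18e-20) and Las1l (1.33 ± 0.08 (SE), adjusted p = 2.09e-15), which were higher in mature retina. RNA polymerase I genes, which serve the transcription of ribosomal RNA, were lower in 11 of 14 and higher in 1 (Taf1b, 0.21), with Taf1d (-1.14) and Polr1a (-0.99) the lowest and Taf1a (0.17) without a call. Host genes of small nucleolar RNAs were lower in 4 of 7 (beside 40.4% of all features) and higher in 1 (Snhg12, 0.28, beside 35.0%), with Snhg5 (-1.83) and Gas5 (-1.60) the lowest.

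The list of mTOR and Myc regulators moved both ways, with 9 of 21 genes lower and 9 higher. These were 42.9% each, beside 40.4% and 35.0% of all features, so that the split was close to that of all features. Mycl went from 48.0 CPM at E14 to 63.8 at P1, 19.1 at P6 and 1.74 at P15 (-4.31 ± 0.15 (SE), adjusted p = 1.80e-22), and Mycn from 84.9 at E14 to 69.8 at P1, 42.5 at P6 and 7.86 at P15 (-3.32 ± 0.12 (SE), adjusted p = 2.17e-21). Deptor, an inhibitor within mTOR complexes, went from 3.04 CPM at E14 to 30.0 at P60 (2.76 ± 0.11 (SE), adjusted p = 1.79e-20), and Mxd4, a Max partner that opposes Myc, was higher by 0.77 ± 0.06 (SE).

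Mitochondrial ribosomal protein genes, which serve a separate ribosome, were lower in 50 of 77 and higher in 8, with a median of -0.41. Mrpl18 (-1.11 ± 0.08 (SE)) and Mrpl39 (-1.04 ± 0.10 (SE)) fell most. Mrpl16 was higher, from 26.2 CPM at E14 to 144 at P6 and 154 at P60 (2.56 ± 0.05 (SE), adjusted p = 3.97e-28), as was Mrpl55 (0.67 ± 0.12 (SE)).

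As for the tissue itself, the labelled retina held the markers of its cells. All 12 progenitor markers were lower and all 12 rod markers higher in mature retina, 6 of 8 Müller glia markers were higher and 2 lower, and 6 of 10 ganglion cell markers were lower and 3 higher. Of all features, 40.4% were lower and 35.0% higher. Lens markers summed to 4.52 to 9.94 CPM over all libraries, with Crybb1, Crygc, Crygd and Lim2 not listed, microglia markers to 12.9 to 27.6, red blood cell markers to 10.7 to 50.3, and vessel markers to 165.6 to 492. Pigment epithelium markers summed to 5.91 to 12.6 CPM in embryonic and 24.3 to 114 in mature libraries. The part of these cells in the results was not tested. Of those tested, 1 of 4 lens markers was higher and 1 lower, 1 of 6 microglia markers, 2 of 4 red blood cell markers and 6 of 9 pigment epithelium markers were higher, and 5 of 7 vessel markers were higher and 2 lower. Reads of the ribosomal RNA gene Rn18s ranged from 4.52 CPM to 13464 CPM in E17 replicate 2, and all 79 genes were lower in mature retina also without rRNA and mitochondrial genes in the total and under median-of-ratios scaling.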

How the data were processed

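RNA from 27 retina libraries was sequenced by the authors as single-end reads from a total RNA kit, aligned to mm10 with STAR, and deposited as CPM per annotated entry, with no other normalization stated by the authors. The annotation, the treatment of reads with several matches and the use of strand are not given in the sources used here. Divided by the CPM of 1 read, all values were whole within a tolerance of 0.05, and this gave the reads per library (7076646 to 11330762).

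The genes and lists were chosen with earlier results of these data known. Groups were the 7 ages given by the labels. Values were tested as log2(CPM + 1) with limma 3.58.1 (R 4.3.3, trend, two-sided), with all libraries in 1 fit, features of at least 1 CPM in at least 3 libraries, and Benjamini-Hochberg adjustment over 31760 features. The tests were also tested on simulated data. Alternatives were another scaling, a total without rRNA and mitochondrial genes, another pseudocount or filter, a replicate block, only the ages compared, summed entries, edgeR 4.0.16 on the recovered reads, and each library left out. A fit without P60 replicates 1 and 2 was chosen after seeing the data, as was edgeR leaving out E14 replicate 1.

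Genes were named by rule, as the 6 largest and 6 smallest falls, the 3 highest and lowest changes at each step, the 5 highest means, genes under the filter, similar pairs, genes with a known separate role, and in other lists the 2 highest and 2 lowest. Rpl31, Rpl32, Rps10 and Rps24 were named after their values were seen. Values of some single genes are not reported here. Merged exons, overlaps and stretches of 50 bases came from GENCODE M21, and start sites from RefSeq. Precision is limited by the number of libraries and by reads.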

Additional observations from a re-analysis of the deposited data

Results flagged for a closer look

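Of 164 sets of libraries of 1 gene at 1 age with 4 or more libraries, 6 held a library far from the others by Dixon's test, and chance flags about 1 in 20. At P15, Rps2 reached 39.45 CPM in replicate 4, beside 19.23 to 21.6 in the others, and Rps4x 5.755 CPM in replicate 1, beside 4.381 to 4.609. At P28, replicate 4 was high for Rpl23a (3.52 CPM, beside 1.466 to 1.685). At P60, replicate 3 was high for Rpl28 (24.47 CPM, beside 10.28 to 14.97). At P1, Rplp2 was low in replicate 2 (56.6 CPM, beside 66.6 to 68.25) and Rps27 in replicate 4 (13.25 CPM, beside 19.66 to 20.36).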

How the results depend on the processing

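Of the gene values under settings other than leaving out 1 library, 1234 kept direction and side of the threshold, 41 no longer passed, 6 newly passed and 3 turned direction. Between embryonic and mature retina, 51 genes were lower with a mean of at least 10 CPM required, since only 51 were then tested, and 51 also passed the F test, and the number was 78 to 79 with 1 library left out. The F test then passed in 76 to 78 genes. With only the ages compared in the fit, the counts were 26 (E17 against E14), 37 (P1 against E17), 2 (P28 against P15) and 0 (P60 against P28, where edgeR on all ages called 7 and limma 12 at an unadjusted p under 0.05). Without P60 replicates 1 and 2 they were 8 (E17 against E14), 2 (P28 against P15) and 21 (P60 against P28), and the last was 5 with no filter. With 1 library left out, the counts ranged from 1 to 4 (E17 against E14), 11 to 24 (P1 against E17), 39 to 52 (P6 against P1), 47 to 58 (P15 against P6), 1 to 4 (P28 against P15) and 3 to 19 (P60 against P28). The cause was not tested. Libraries with the same replicate number did not deviate together (r from -0.13 to 0.17, 7 of 27 libraries closest to their own number), and a replicate block left 2 lower and 0 higher genes between P28 and P60 (Rpl10a at an adjusted p of 0.0524, Rps6 at 0.0763, Rps2 at 0.121 and Rpl26 at 0.162) and calls of 79, 3, 21, 46, 58 and 1 gene in the other comparisons. The summed CPM of mature over embryonic libraries was 0.316, and 0.310 to 0.337 under all alternatives run.

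Log2 fold changes that turned direction passed the test in none of these settings. With entries summed, Rps15a was at -0.14 and Rpl10 at -0.27 from E17 to P1, and with the replicate block Rpsa was at 0.012. With 1 library left out, the range from E17 to P1 was -0.076 to 0.15 for Rpl10 (turned without E17 or P1 replicate 1) and -0.076 to 0.14 for Rpsa (turned without E17 replicate 1 or P1 replicate 1 or 3), and from P1 to P6 it was -0.045 to 0.34 for Rps4l (turned without P1 replicate 3). From P6 to P15 it was -0.10 to 0.27 for Rpl17 (turned without P6 replicate 1 or P15 replicate 3, the latter at -0.011), -0.074 to 0.31 for Rpl36 (turned without P6 replicate 1) and -0.21 to 0.16 for Rpl39 (turned without P6 replicate 3 or P15 replicate 4). Depth limits the low genes, such as Rpl3l, which held at most 16 reads in a library.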
